A study of Mus musculus with 12 samples.

Results

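The 10 circadian clock genes described here, Arntl, Clock, Per1, Per2, Per3, Cry1, Cry2, Nr1d1, Nr1d2 and Dbp, were chosen by name, and their data are the peaks that the authors assigned to them. These were 184 of 269580 peaks over 6 libraries, and the lists named 23433 genes in all. The libraries are chromatin immunoprecipitation and sequencing (ChIP-seq) of histone H4 acetylated at lysine 8 (H4K8ac), a mark found at active promoters and enhancers. The chromatin came from oligodendrocyte progenitor cells (OPCs), the dividing glia that give rise to myelinating oligodendrocytes. These primary cells were sorted from forebrain at postnatal day 5 (neonatal, 3 libraries) or postnatal day 60 (adult, 3 libraries). Mice of both ages carried PdgfrαH2BEGFP, a reporter that puts a nuclear green fluorescent protein under Pdgfra, a gene of OPCs and of some cells around vessels, and no further sorting marker is given. The labels call the libraries biological replicates, and the number of animals pooled in each, the hour of collection and the sex are not given in the sources used here. Another 6 libraries are inputs and were not analysed here.

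The mammalian clock is a feedback loop of transcription. CLOCK and ARNTL (also called BMAL1) form a dimer that binds E-boxes and activates the Per and Cry genes, whose proteins return to the nucleus and repress the dimer. In a second loop the nuclear receptors REV-ERBα and REV-ERBβ, encoded by Nr1d1 and Nr1d2, repress Arntl through response elements that they share with the activating ROR receptors, and DBP carries the rhythm to genes with a D-box. Such loops run in most tissues, brain included, and cell division and metabolism are among the processes they are known to time.

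The lists held 9097, 31189 and 7353 peaks (neonatal replicates 1, 2 and 3) and 72278, 72661 and 77002 peaks (adult replicates 1, 2 and 3), so neonatal replicate 2 stood apart from the other neonatal libraries and all clock gene values are read against lists of unequal length. Values given in threes follow replicates 1, 2 and 3. Reads per library are unknown. Promoter peaks lay on 7 or 8 of 8 OPC markers in every library, and on 1 of 5 oligodendrocyte markers in each neonatal and 5 of 5 in each adult library. Mog, Mag, Mobp and Opalin had none in neonatal libraries, and the summed promoter peak bases of the oligodendrocyte markers were 435 to 2137 in neonatal and 34200 to 54822 in adult libraries. Those of the OPC markers were 3292 to 23293 and 41923 to 60951. Of 4 microglial markers, Cx3cr1 alone had a promoter peak, in the adult libraries (summed 579 to 1067 bases against 0), and of 4 endothelial markers Pecam1 alone (161 to 649 bases against 0). The summed bases of the neuron, astrocyte and fibroblast markers overlapped between the ages (0 to 1484 in neonatal and 0 to 1173 in adult libraries, with Snap25, Aqp4, Dcn and Lum at 0). Among them the neuronal marker Slc17a7 had a promoter peak in 0 neonatal and 3 adult libraries, and Rbfox3 (neuron) and Col1a1 (fibroblast) in 1 and 3. The part of the signal at these markers of other cell types in the clock gene values was not tested.

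Adult OPCs carried more H4K8ac peak sequence at every one of the 10 clock promoters. A promoter peak was found on 4, 10 and 4 clock genes in neonatal replicates 1, 2 and 3, a mean of 6 ± 3.46 (SD, n = 3), and on 10 in each adult library. The authors annotated a peak as promoter within 3000 bp of a start of the gene. Of all 18548 genes with a promoter peak in any library, 73.1% had one in all 3 adult and 22.8% in all 3 neonatal libraries, against 10 and 2 of the 10 clock genes. Per library, 34.4%, 73.9% and 30.3% of all genes had one in neonatal and 83.6%, 81.5% and 83.5% in adult replicates. Without neonatal replicate 2 the neonatal numbers of clock genes were 4 and 4. With all libraries, the 10 genes had more promoter peak bases in every adult than in every neonatal library, as did 60.1% of all genes. Leaving out neonatal replicate 2 could not change this for the 10 genes, and the share of all genes was then 71.6%.

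Known clock elements near the starts show which bases of the promoters lay under the adult peaks. The sequences below are from RefSeq (GRCm38.p6), which gave 13 promoter windows for 9 of the 10 genes. Each line gives the 250 bases before a start, 5′ to 3′ along the gene, and capitals mark exact matches to a searched element. Per1 (chr11:69098699-69098948, plus strand) and Cry1 (chr10:85185055-85185304, minus strand) are shown because adult peaks ran across their elements, and Per3 (chr4:151044666-151044915, minus strand) because its elements lay in a gap between adult peaks.
Per1: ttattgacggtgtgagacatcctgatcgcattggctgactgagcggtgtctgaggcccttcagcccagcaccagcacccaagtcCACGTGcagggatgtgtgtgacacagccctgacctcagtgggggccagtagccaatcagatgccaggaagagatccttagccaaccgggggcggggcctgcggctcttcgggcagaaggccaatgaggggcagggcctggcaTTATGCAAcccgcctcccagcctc
Cry1: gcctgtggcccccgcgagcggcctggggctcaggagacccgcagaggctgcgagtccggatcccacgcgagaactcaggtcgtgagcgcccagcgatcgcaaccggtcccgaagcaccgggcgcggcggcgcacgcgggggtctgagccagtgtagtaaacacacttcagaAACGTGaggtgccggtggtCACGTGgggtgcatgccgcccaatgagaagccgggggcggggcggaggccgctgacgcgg
Per3: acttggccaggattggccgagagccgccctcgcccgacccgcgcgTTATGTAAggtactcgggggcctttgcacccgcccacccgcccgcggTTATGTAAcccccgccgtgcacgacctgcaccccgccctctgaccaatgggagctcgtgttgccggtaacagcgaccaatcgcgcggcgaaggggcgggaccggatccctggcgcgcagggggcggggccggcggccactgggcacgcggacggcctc

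In Per1 the capitals are an E-box, CACGTG, 166 bases before the start and a D-box form, TTATGCAA, 24 bases before it. In Cry1 they are AACGTG, 79 bases before the start, which is the E′-box CACGTT on the other strand, and CACGTG, 60 bases before it. All 4 matches lay under a peak in 3 adult and 0 neonatal libraries, and the adult part follows from the choice of these genes. At 100 bases upstream, 32.5% of the starts of all genes lay under a peak in all 3 adult libraries. In neonatal replicates 1, 2 and 3, counted singly, it was 6.41%, 25.9% and 5.28%, so most starts were uncovered there. The 2 copies of the D-box form TTATGTAA in Per3, 205 and 158 bases before the start, lay under a peak in 0 of 6 libraries. Arntl is shown with 30 bases downstream of a second start, where capitals mark TAGGTCA, the core of the element bound by ROR and REV-ERB receptors (chr7:113207530-113207559, plus strand).
Arntl: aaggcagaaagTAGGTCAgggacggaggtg

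This Arntl match lay under a peak in 3 adult libraries and in neonatal replicate 2. Searched by the same letters on both strands, CACGTT also matched Cry2 in an uncovered stretch and Nr1d1 in a stretch covered in adult replicate 3 alone. The forms TTACGTAA (D-box) and TGACGTCA (the cyclic AMP response element) matched none of the 13 windows. Among all 32851 promoter windows of 300 bases in the table, CACGTG was found in 7.15%, CACGTT in 4.68%, TTATGTAA in 0.938%, TTATGCAA in 0.743% and TAGGTCA in 2.61%, and TTACGTAA and TGACGTCA in 0.119% and 1.79%. Matches are descriptions of the letters and not evidence of binding.

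The activators of the loop differed in peak presence in neonatal replicate 1, where Clock had a promoter peak and Arntl had none. Clock (ENSMUSG00000029238.11, chr5:76209868-76305603), which encodes a subunit of the activating dimer, had a promoter peak in all 6 libraries, of 1212, 1599 and 581 bases in the 3 neonatal replicates in order, against 1843, 1883 and 2022 bases in the adult ones. The lowest adult value was 1.15 times the highest neonatal value, the narrowest margin of the 10 genes. The means were 1131 ± 514 and 1916 ± 94.0 bases (SD, n = 3 each). Clock was thus already marked in every neonatal library, by 1 assigned peak per library at both ages that was wider in adult cells. A smaller peak close by was assigned to another gene in neonatal replicate 3 and in each adult library. By position alone Clock had 1212, 1599 and 767 bases in neonatal and 2112, 2041 and 2218 in adult replicates.

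Arntl (ENSMUSG00000055116.8, chr7:113178471-113314126), which encodes the partner of CLOCK, had 0, 1099 and 588 promoter peak bases in the 3 neonatal replicates in order, against 1602, 1639 and 1947 in the adult ones. The means were 562 ± 550 and 1729 ± 189 bases (SD, n = 3 each). The libraries of the ages did not overlap, and neonatal replicate 1 had no promoter peak. By the authors' q-values and folds, the best Arntl promoter peak ranked above that of Clock in neonatal replicates 2 (793 against 3569) and 3 (1051 against 3723). The peak downstream of the start was found in neonatal replicates 2 and 3 and all adult libraries, while the peak at chr7:113206448-113207221, upstream of the start, was found in neonatal replicate 2 and all adult libraries.

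**Figure D1:**
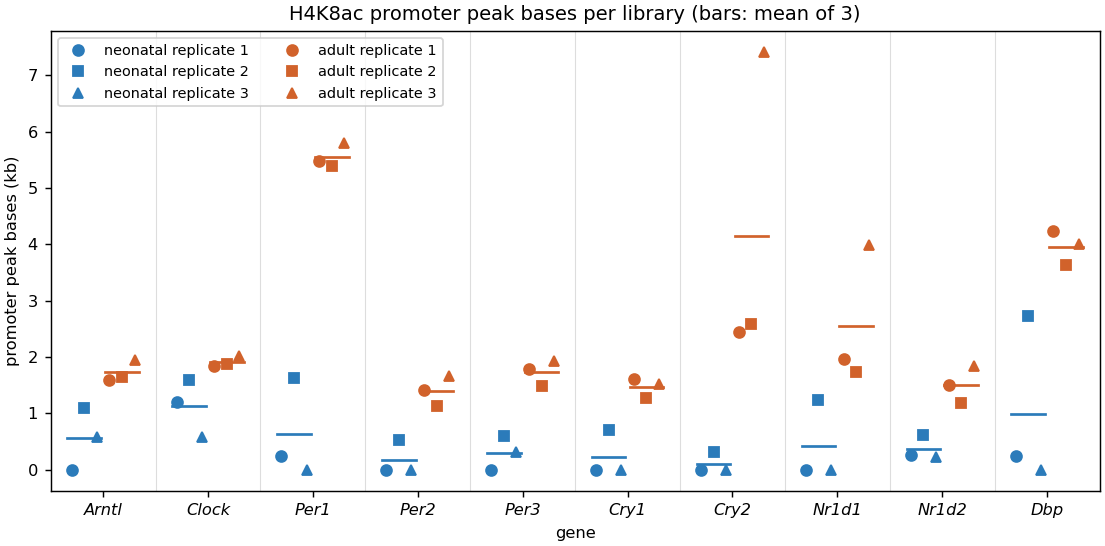
Summed bases of promoter peaks (kb, vertical axis) assigned to each of the 10 clock genes (horizontal axis) in the 3 neonatal (blue) and 3 adult (orange) libraries, with bars at the means of 3. All adult points lie above all neonatal points within each gene, with the narrowest margin at Clock, and neonatal replicate 2 (squares) is the highest neonatal library at every gene.

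The Per genes encode repressors that are themselves induced by the dimer, and Per1 and Per2 also respond rapidly to outside signals. Per1 (ENSMUSG00000020893.17, chr11:69095108-69109965) had 250, 1632 and 0 promoter peak bases in the 3 neonatal replicates in order, against 5480, 5395 and 5793 in the adult ones, the largest difference of the 10 genes at 4929 bases. Its means were 627 ± 879 and 5556 ± 210 bases (SD, n = 3 each). In neonatal replicate 2 the signal was split into 7 peaks, the widest of 428 bases, whereas the widest peaks of the adult libraries spanned 2217, 1796 and 2766 bases. The adult peaks reached from upstream of one Per1 start across the next, with a stretch at chr11:69093710-69094758 found in 3 adult and 0 neonatal libraries.

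Per2 (ENSMUSG00000055866.9, chr1:91415977-91459351) had 0, 534 and 0 promoter peak bases in the neonatal replicates and 1415, 1141 and 1659 in the adult replicates. Per3 (ENSMUSG00000028957.12, chr4:150997018-151044707) had 0, 599 and 320 and then 1794, 1492 and 1936. In both genes the peak just downstream of the start was the one that neonatal libraries also held, and a separate upstream peak was found in adult libraries alone. For Per2 this upstream peak was at chr1:91459496-91459954, with 338, 370 and 456 bases in adult replicates 1, 2 and 3. For Per3 it was at chr4:151044875-151045541, with 580, 401 and 618 bases, and the gap between it and the downstream peak holds the D-box forms printed above. The means were 178 ± 308 and 1405 ± 259 bases for Per2 and 306 ± 300 and 1741 ± 227 for Per3 (SD, n = 3 each).

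The cryptochromes, the other repressors of the dimer, had a promoter peak in neonatal replicate 2 alone of the neonatal libraries. Cry1 (ENSMUSG00000020038.10, chr10:85131700-85185054) had 0, 701 and 0 bases in the neonatal replicates and 1610, 1270 and 1521 in the adult replicates (means 234 ± 405 and 1467 ± 176, SD, n = 3 each). In neonatal replicate 2 these were 3 separate peaks, and in each adult library a single peak spanned the start and the elements printed above, with 1431, 1270 and 1521 bases. Cry2 (ENSMUSG00000068742.11, chr2:92403646-92434085) had 0, 312 and 0 bases in the neonatal and 2454, 2596 and 7414 in the adult replicates (means 104 ± 180 and 4155 ± 2824). Adult replicate 3 was far above the other adult libraries because a 3684-base peak lying 3910 to 7593 bases downstream of the start was annotated as promoter of a shorter transcript there. When any peak within 3000 bp of a start was counted instead, that library had 4498 bases and the other adult values stayed at 2454 and 2596.

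The REV-ERB genes differed from each other in the neonatal libraries. Nr1d2 (ENSMUSG00000021775.11, chr14:18204056-18239106) had a promoter peak in all 6 libraries, with 271, 612 and 233 bases in the 3 neonatal replicates in order, against 1502, 1193 and 1837 in the adult ones. Its means were 372 ± 209 and 1511 ± 322 bases (SD, n = 3 each). By the authors' q-values and folds its best promoter peak ranked 31 of 9097, 2304 of 31189 and 1897 of 7353 in the neonatal lists and 991 of 72278, 224 of 72661 and 130 of 77002 in the adult lists. The best neonatal Nr1d2 peak was thus near the top of the list in replicate 1 and lower in the other neonatal lists.

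Nr1d1 (ENSMUSG00000020889.11, chr11:98767932-98775377) had 0, 1247 and 0 promoter peak bases in the neonatal replicates and 1963, 1728 and 3986 in the adult replicates (means 416 ± 720 and 2559 ± 1241, SD, n = 3 each). Its best promoter peak ranked 13698 of 31189 in neonatal replicate 2, 14031 of 72278 in adult replicate 1, 17175 of 72661 in adult replicate 2 and 11718 of 77002 in adult replicate 3. Nr1d1 was the single clock gene with no promoter peak among the strongest peaks of any library, as described further on.

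Dbp (ENSMUSG00000059824.12, chr7:45705100-45710203), an output gene with strong daily rhythm in many tissues, had 244, 2733 and 0 promoter peak bases in the neonatal replicates and 4241, 3631 and 4017 in the adult replicates. The means were 992 ± 1512 and 3963 ± 309 bases (SD, n = 3 each). The neonatal libraries spread more than at any other clock gene, and neonatal replicate 2 came within 1.33 times of the lowest adult library. A peak region over the second part of the gene, chr7:45707883-45709289, was found in 3 adult and 0 neonatal libraries, with 1078, 1258 and 1407 bases. Peaks upstream of Dbp were mostly assigned to a neighbouring gene, and by position alone Dbp had 406, 3010 and 0 bases in neonatal and 5544, 4602 and 5233 in adult replicates.

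**Figure D2:**
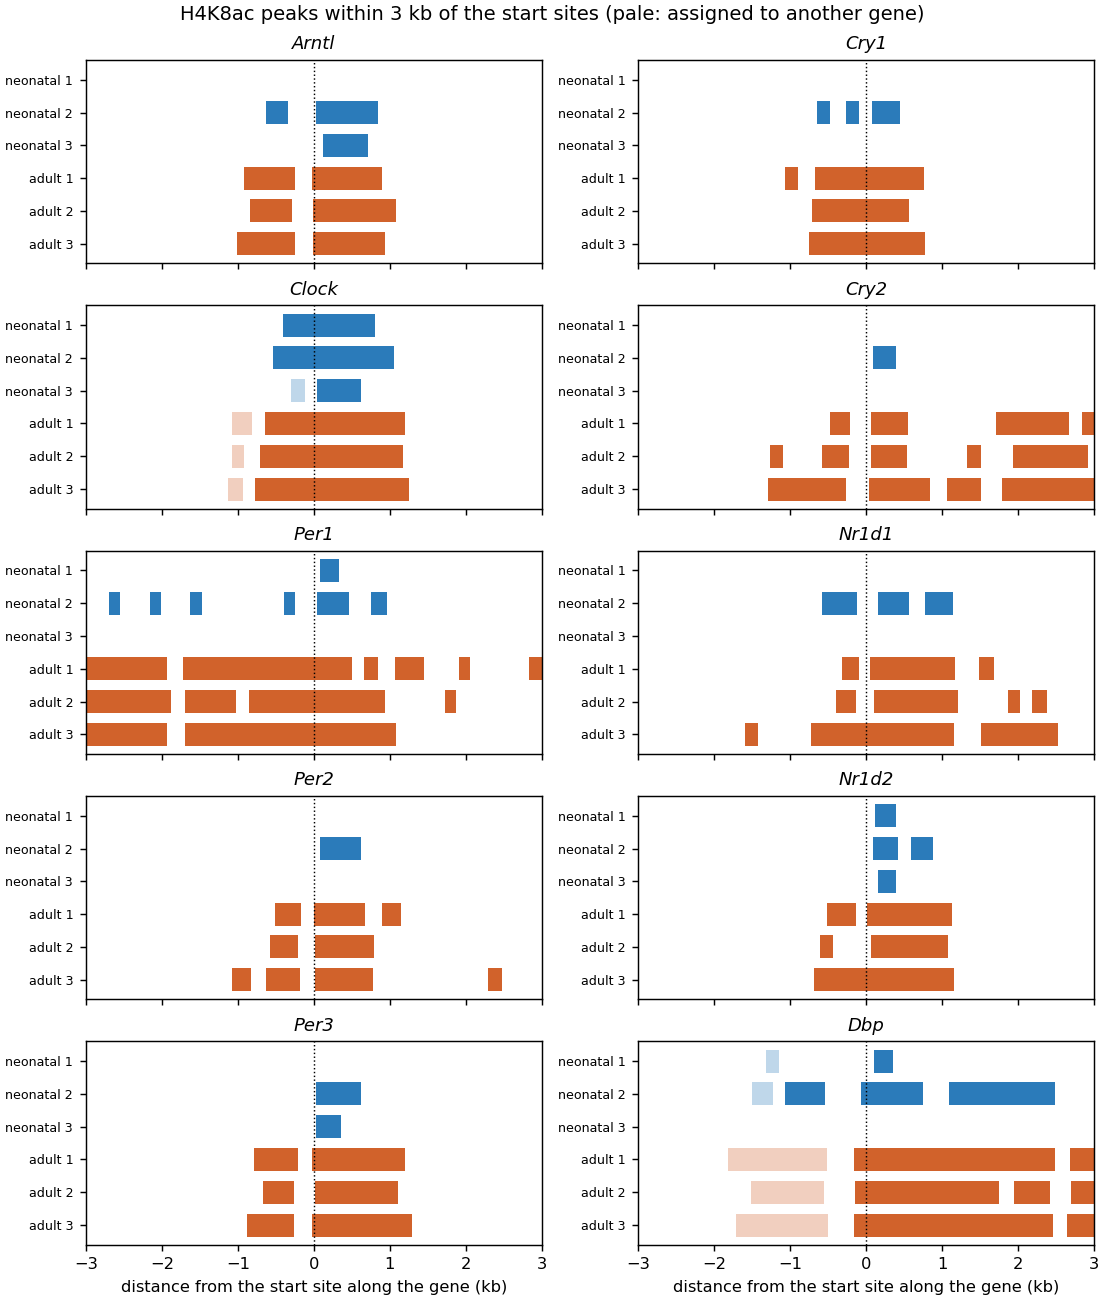
Peaks (bars) of each library within 3 kb of the start site of each clock gene, by distance along the gene (kb, horizontal axis), with neonatal libraries in blue, adult libraries in orange and peaks assigned to another gene in pale. Clock and Nr1d2 have a peak in all 6 libraries, and the adult bars of Arntl, Per2, Per3 and Cry2 leave a gap just upstream of the start.

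For each of the 10 genes the exact two-sided permutation test over the 20 arrangements of 3 against 3 libraries gave p = 0.1, the smallest this design allows, and the Benjamini-Hochberg adjusted p over 18548 genes was 0.165. No gene could therefore reach 0.05. At each clock gene p was 0.1 because the libraries of the ages did not overlap, whatever their spread. Every adult library was above every neonatal library in 10 of 10 clock genes, and in 60.1% of all genes. The opposite order was found in 0 clock genes and in 0.399% of all genes. The median clock gene had 0, 900 and 0 bases in neonatal and 1818, 1684 and 1984 in adult replicates, and the median of all genes was 0, 417 and 0 and then 787, 745 and 992.

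By presence, the genes fell into 4 patterns that all included the 3 adult libraries. Clock and Nr1d2 had a promoter peak in all 6 libraries, as did 21.5% of all genes. Arntl and Per3 had it also in neonatal replicates 2 and 3, a pattern of 5.84% of genes, and Per1 and Dbp in neonatal replicates 1 and 2, a pattern of 9.15%. Per2, Cry1, Cry2 and Nr1d1 had it in neonatal replicate 2 alone of the neonatal libraries, as did 24.2% of genes. No clock gene had adult peaks throughout with none in neonatal cells, a pattern of 12.1% of genes.

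Equal numbers of peaks were compared by taking the 7353 strongest of each list, the length of the shortest. Clock genes with a promoter peak among these numbered 2, 6 and 4 in neonatal replicates and 8, 8 and 9 in adult ones, while the share of all genes was 29.8%, 34.1% and 30.3% and then 32.8%, 29.2% and 30.1%. The clock genes were thus still found in more adult than neonatal libraries when the lists were equally long, and the share of all genes was about level. A promoter peak in more adult than neonatal libraries was found for 7 of 10 clock genes and 17.8% of all genes, and the reverse for 0 clock genes and 19.0% of all genes. Without neonatal replicate 1 the number of clock genes was 5 and not 7, and it stayed at 7 with any other library left out. Every adult library was above every neonatal library in promoter bases for 7 of 10 clock genes, against 18.7% of all genes.

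Per2 had no neonatal promoter peak at equal numbers, with 0 bases in each neonatal library and 676, 1141 and 456 in adult replicates 1, 2 and 3. Cry1 had 0, 334 and 0 bases and then 1431, 1270 and 1521. Arntl had 0, 813 and 588 bases and then 923, 1089 and 944. These 3 genes kept adult libraries above all neonatal ones, as did Clock, Per3, Nr1d2 and Dbp. Per1 and Cry2 had a promoter peak among the strongest in 2 adult and 0 neonatal libraries (Per1 0, 3586 and 1754 bases, Cry2 482, 0 and 796 in adult replicates 1, 2 and 3), and Nr1d1 in no library.

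Coverage was also counted at fixed distances from the starts, whatever gene a peak was assigned to. Of 13 RefSeq starts of 9 clock genes, 11 lay under a peak in all 3 adult libraries at 250 bases downstream, against 61.8% of 15478 starts of all genes. At 500 bases downstream it was 10 of 13 against 40.4%. At 500 bases upstream it was 10 of 13 against 32.1%, and at the start itself 7 of 13 against 37.2%. At 100 bases upstream it was 5 of 13 against 32.5%. In neonatal replicates 1, 2 and 3, counted singly, 5, 11 and 6 of the 13 starts were covered at 250 bases downstream. The shares of all starts there were 22.6%, 58.4% and 19.7%. At 500 bases upstream the neonatal counts were 2, 7 and 1, against 4.90%, 22.4% and 4.08% of all starts. The clock starts thus exceeded all starts at these 2 distances in neonatal libraries too. Starts of 1 gene share its peaks.

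**Figure D3:**
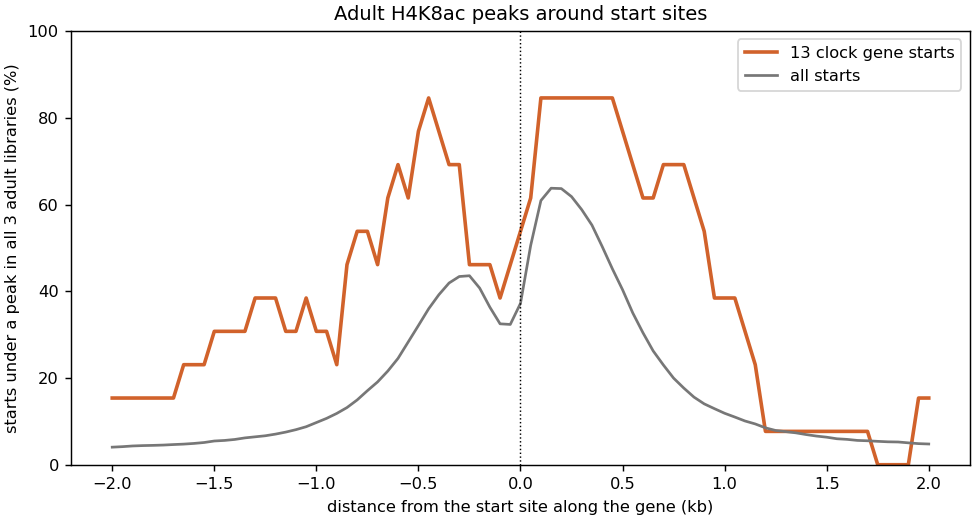
Share of start sites under a peak in all 3 adult libraries (%, vertical axis) by distance from the start along the gene (kb, horizontal axis), for 13 starts of 9 clock genes (orange) and 15478 starts of all genes (grey). The clock gene line stands above the line of all starts at 500 bases upstream (10 of 13 against 32.1%) and 500 bases downstream (10 of 13 against 40.4%).

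Among the clock gene peaks, those outside promoters were fewer than promoter peaks in every library. Promoter peaks made up 66.7%, 72.7% and 66.7% of clock gene peaks in neonatal and 70.2%, 64.4% and 63.8% in adult replicates. Over all peaks the shares were 85.2%, 67.5% and 88.8% and then 43.9%, 43.1% and 40.4%. Outside promoters the clock genes had 2, 9 and 2 peaks in neonatal and 14, 16 and 17 in adult replicates. Clock, Per1, Per3 and Dbp had no peaks of this kind. Every adult library was above every neonatal library in bases of these peaks for 3 of 10 clock genes, Per2, Cry2 and Nr1d2, a share near the 24.8% of all genes.

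Nr1d1 differed from the other clock genes in having a distal intergenic region in all 6 libraries. This region, chr11:98781557-98785883, lay 6180 to 10506 bases upstream of the start. Its assigned peaks covered 851, 3057 and 448 bases in the 3 neonatal replicates in order, against 3246, 2985 and 2862 in the adult ones. By these sums the libraries overlapped, since neonatal replicate 2 was above adult replicates 2 and 3. The outermost peak of neonatal replicate 2 was assigned to Nr1d1. Peaks sharing its bases in every other library were assigned to another gene and not counted, so the overlap depended on the assignment. Neonatal replicates 1 and 3 thus had H4K8ac peaks upstream of Nr1d1 while neither had a promoter peak on it. The other 3 non-promoter peaks of Nr1d1, all in adult replicate 3, were annotated in an intron of another gene.

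Per2 had a region far inside the gene, chr1:91435083-91438687, that lay 20637 to 24241 bases downstream of the start and was annotated as exon or intron. It held 0, 695 and 0 bases in neonatal and 1936, 2960 and 3248 bases in adult replicates, more than the promoter of the same gene in each of these 4 libraries with a peak. Cry2 had an exonic region at chr2:92422693-92425794 with 0, 313 and 0 and then 2311, 2630 and 2619 bases, and the authors annotated part of these peaks to an exon of an overlapping gene. Upstream of Cry2, a distal intergenic region at chr2:92437578-92438115 had 281, 476 and 538 bases in the adult and none in the neonatal replicates. Both genes had these peaks in all adult libraries, and in neonatal replicate 2 or in no neonatal library.

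Nr1d2 had a region within the gene, chr14:18216089-18217196, that lay 21910 to 23017 bases downstream of the start and was annotated as exon or intron, with 374, 459 and 1108 bases in adult replicates 1, 2 and 3 and none in the neonatal replicates. Arntl had an intronic peak at chr7:113250267-113250687 in neonatal replicate 2 alone (421 bases) and another at chr7:113260436-113260893 in the 3 adult libraries alone (297, 376 and 386 bases). The single non-promoter peak of Cry1 was distal intergenic and in adult replicate 3 alone, with 477 bases.

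**Figure D4:**
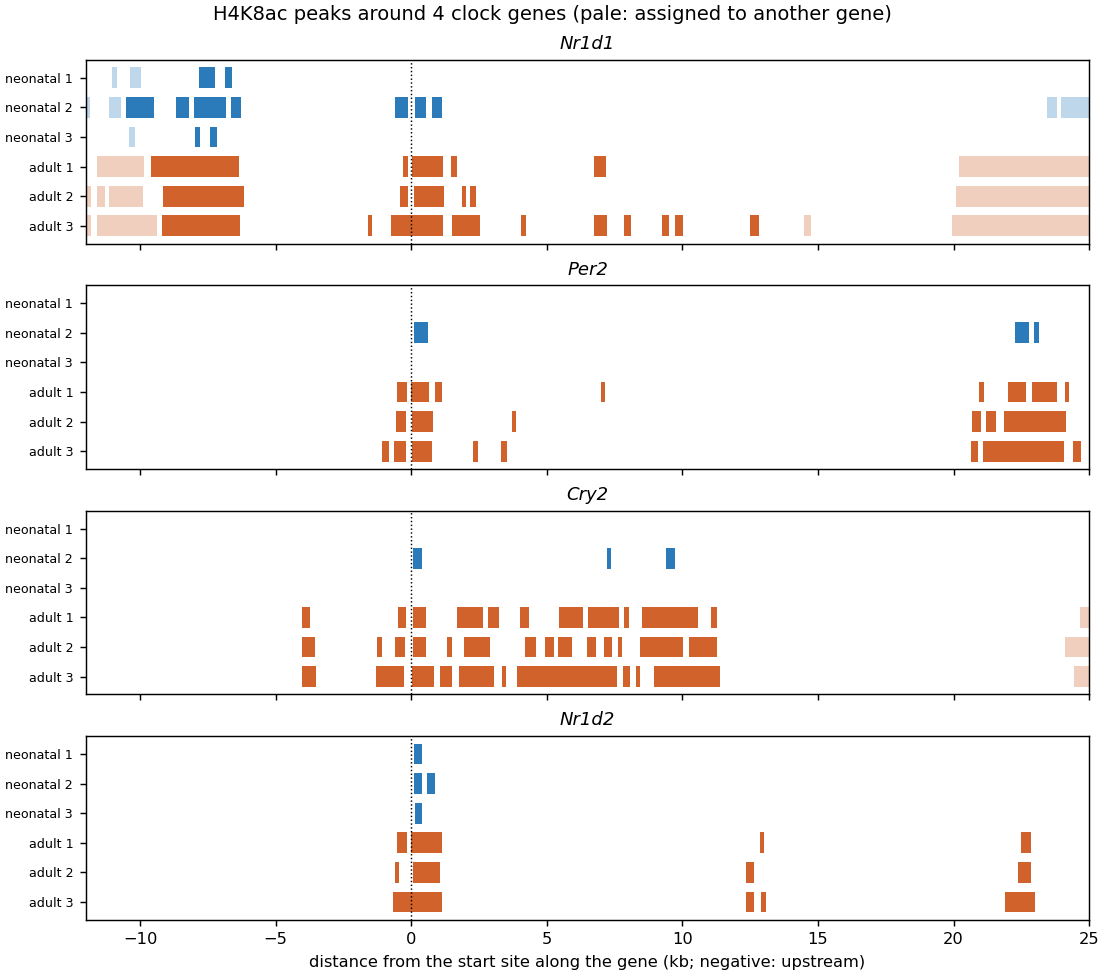
Peaks (bars) of each library from 12 kb upstream to 25 kb downstream of the start sites of Nr1d1, Per2, Cry2 and Nr1d2 (horizontal axis, kb along the gene), neonatal in blue, adult in orange, peaks assigned to another gene in pale. The Nr1d1 region between 6180 and 10506 bases upstream has bars in all 6 libraries, and the Per2 region from 20637 bases downstream has bars in neonatal replicate 2 and the 3 adult libraries.

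The authors' deposited table of differential sites, each 400 bp wide, gave read-based values for the same genes. All 30 sites that the authors' deposited table listed at the clock genes were higher in adult cells, as were 43634 of its 43888 sites, so the direction is that of nearly the whole table. A promoter site higher in adult cells was listed for 10 of 10 clock genes and for 64.4% of all genes in the authors' deposited table, and one higher in neonatal cells for 0 and for 0.679%. Each gene was represented by its promoter site of smallest p-value. The log2 values of the authors' deposited table then had a median of 1.97 over the 10 genes and 1.77 over all 12071 genes with such a site (quartiles 1.41 and 2.55). This order turned when sites were limited to an adjusted p under 0.005 in the authors' deposited table, where the medians were 1.97 and 2.10, so positions against the median of all genes depend on that limit.

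Dbp had the largest of these 10 values in the authors' deposited table, log2 3.00 at chr7:45708156-45708555 (adjusted p = 1.23e-06), in the adult-only region over the second part of the gene. Per1 followed in the authors' deposited table with log2 2.67 at chr11:69095561-69095960 (adjusted p = 5.86e-08), and a further Per1 site at chr11:69102070-69102469 had log2 4.39 (adjusted p = 5.98e-05). The values of Dbp and Per1 lay above the upper quartile of all genes. Per2 (log2 2.23, adjusted p = 4.42e-06), Cry1 (2.06, adjusted p = 1.96e-05), Nr1d1 (2.06, adjusted p = 0.000668), Per3 (1.88, adjusted p = 4.23e-05) and Cry2 (1.85, adjusted p = 0.000965) were between the median and that quartile in the authors' deposited table.

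The 3 genes below the median of all genes in the authors' deposited table were Nr1d2 (log2 1.62, adjusted p = 0.000121), Clock (1.52, adjusted p = 0.00288) and Arntl (1.34, adjusted p = 0.00496). The activators Arntl and Clock were thus the lowest of the 10. The only clock gene promoter sites that overlapped a peak in all 3 neonatal libraries in the authors' deposited table were those of Clock and Nr1d2.

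Outside promoters, the largest value in the authors' deposited table among the clock genes was in an exon of Nr1d2, log2 4.58 at chr14:18216270-18216669 (adjusted p = 2.12e-06). The intergenic site upstream of Cry2, chr2:92437793-92438192, had log2 3.69 in the authors' deposited table (adjusted p = 2.02e-06). By contrast the intergenic site upstream of Nr1d1, chr11:98783840-98784239, had log2 1.27 in the authors' deposited table (adjusted p = 0.0105), below all 3 Nr1d1 promoter sites. The median was 1.99 over the 23 promoter and 2.15 over the 7 other clock gene sites in the authors' deposited table, against 1.86 and 2.85 over all its promoter and other sites.

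**Figure D5:**
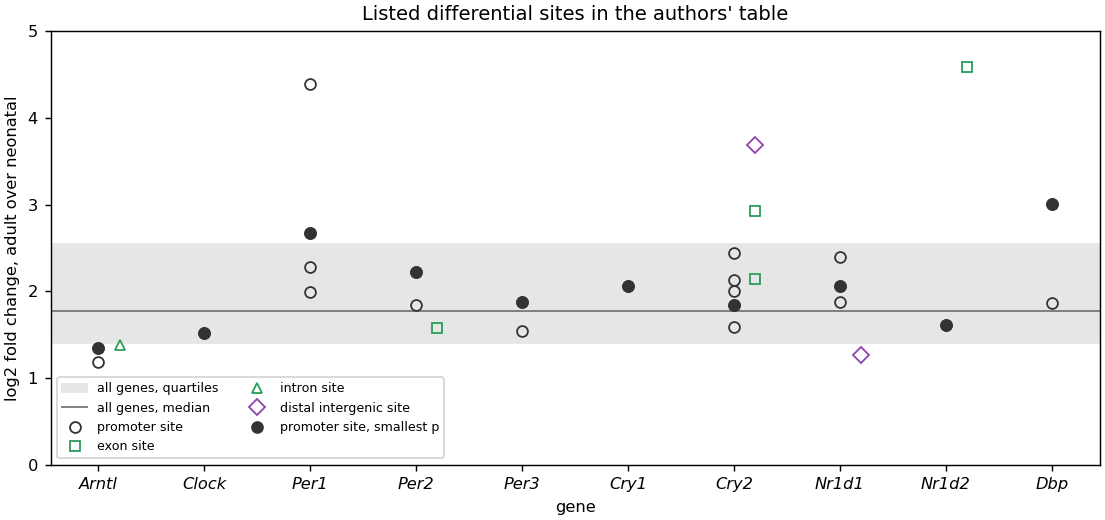
Log2 fold change, adult over neonatal (vertical axis), of each site that the authors' deposited table lists at the clock genes (horizontal axis), by annotation class, with the promoter site of smallest p filled and the median and quartiles of all genes in grey. All 30 sites lie above 0, and the filled points run from 1.34 at Arntl to 3.00 at Dbp.

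A second list of 18 genes of the clock pathway, made up of paralogs, other E-box, D-box and ROR factors, and kinases and ubiquitin ligases that act on PER and CRY proteins, gave a wider view. Promoter peaks lay on 11, 18 and 10 of them in neonatal replicates and 18, 16 and 16 in adult ones. The shares of all genes were 34.4%, 73.9% and 30.3% and then 83.6%, 81.5% and 83.5%. Every adult library was above every neonatal library in promoter peak bases for 14 of the 18, beside 60.1% of all genes, and the opposite held for 0, beside 0.399% of all genes. The authors' deposited table had a promoter site for 16, of which 15 were higher in adult cells, with a median log2 of 1.72. Among all genes it had one higher in adult cells for 11945 and one higher in neonatal cells for 126.

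Csnk1d, a kinase that marks PER proteins for degradation, had 658, 1040 and 501 promoter peak bases in neonatal and 4088, 2334 and 5288 in adult replicates. Its site in the authors' deposited table had log2 4.51 and lay at chr11:120973996-120974395. That is well inside the gene (chr11:120957709-120991350, minus strand) and not at its outermost RefSeq start. Tef, a D-box factor related to Dbp, had 192, 1169 and 611 bases and then 5050, 4925 and 7726 (log2 2.27 in the authors' deposited table). Usp2, a deubiquitinase, had 319, 1251 and 0 and then 5941, 5116 and 10046 (log2 2.10 in the authors' deposited table). The adult libraries of Tef and Usp2 were at least 4.09 times the highest neonatal library, a wider margin than at 9 of the 10 clock genes. Timeless, Nfil3 (a repressor at D-boxes), Rora, Hlf and Ciart had log2 values of 2.47, 2.15, 1.98, 1.96 and 1.795 in the authors' deposited table, with no overlap of their promoter peak bases between the ages. The Rora site, chr9:69289849-69290248, also lay well inside its gene (chr9:68653404-69388246, plus strand).

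Npas2, the paralog that can replace CLOCK in the dimer, was the exception. It had 511, 1400 and 312 promoter peak bases in the 3 neonatal replicates in order, against 345, 0 and 0 in the adult ones, so the ages overlapped (exact permutation p = 0.2, adjusted p = 0.300 over 18548 genes). Its promoter site at chr1:39193725-39194124 had log2 -1.61 in the authors' deposited table (adjusted p = 0.0105). Clock, by contrast, had its promoter peak in all 6 libraries.

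The genes whose promoter peak bases over the 6 libraries were closest to the median clock gene were 1700008O03Rik, Myl6, Abca1, Fam222b and Zfp84, at Euclidean distances of 0.0861, 0.199, 0.202, 0.208 and 0.214 on log2(bases + 1). Each had a promoter peak in neonatal replicate 2 alone of the neonatal libraries and in all adult libraries.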

How the data were processed

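H4K8ac was measured in 3 neonatal and 3 adult libraries, grouped by the age in the labels. The submitters' processing notes name Trim Galore, Bowtie2 2.4.5, SAMtools, deepTools, MACS2, DiffBind, ChIPseeker and the build GRCm38. The authors deposited 1 annotated peak list per library with a score, a fold enrichment (a ratio), and −log10 of the p-value and q-value of each peak, per the file headers. The largest q-value of a list was 0.0427 to 0.0489. A second deposited table lists differential sites by log2 fold change with raw and adjusted p-values; its direction is not stated and was read from overlap, since 99.99% of positive sites overlapped an adult and 27.9% a neonatal peak. Its normalization is not given in the sources used here.

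Peak widths were summed per gene and library, promoter and other peaks apart, with pandas 2.3.3, numpy 2.4.6 and scipy 1.17.1. A site took the gene of the peak with the longest overlap. Peaks were ranked by q-value, then fold. The test script was tested on simulated data. Distances are from the most upstream RefSeq start, and for Per2 from the start of its longest transcript in the lists. Input libraries were not analysed here, and 1 oligodendrocyte marker is not reported here. The members, lists and tests were chosen with earlier results of these data known. All 10 members were described, and of the related genes those without overlap and with a listed site, the 8 with the largest log2 values, and any negative one. Alternatives were a q-value limit of 0.005, equal numbers of peaks, windows of 1000 and 3000 bp around starts, a site cover of 50%, an adjusted p under 0.005, the replicate block and leaving out each library. No peak coordinates recurred between libraries except 1 peak shared by adult replicates 1 and 3 and 1 by adult replicates 2 and 3.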

Additional observations from a re-analysis of the deposited data

How the results depend on the processing

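Of the 110 differences for single clock genes recomputed under alternatives, 109 kept adult above neonatal, 0 were below 0, and Nr1d1 at equal numbers of peaks was 0 in all libraries. Leaving out a library and the replicate block could not give another sign, since no neonatal library reached an adult one at any of the 10 genes. The number of clock genes with every adult above every neonatal library in bases outside promoters was 3, became 0 among the 7353 strongest peaks, where 1.72% of all genes remained, and ranged from 3 to 5 with 1 library left out, the highest without neonatal replicate 2. For promoter bases it was 10 with any library left out, which the full separation of the ages fixed in advance, and 7 at equal numbers of peaks. Over 13790 genes, the correlations of same-numbered neonatal and adult libraries were not higher than those of differently numbered ones. This does not show whether same-numbered libraries were handled together. With the replicate block all 10 genes were higher in adult within every number, which was fixed in the same way, as were 63.3% of all genes. The smallest p of that sign-flip test is 0.25. At an adjusted p under 0.005 the promoter median in the authors' deposited table was 1.97 over the clock genes and 2.10 over all genes, so the order against all genes turned. Peak lists carry no reads per library, so a missing peak does not show that the mark was absent.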
